A study of Homo sapiens with 39 samples.

Results

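The 10 acute-phase protein genes SAA1, SAA2, CRP, HP, ORM1, ORM2, FGA, FGB, FGG and HAMP were taken by symbol from the 20802 gene targets of the AmpliSeq table, and all 10 were found, with 1 amplicon target each. They were measured in 39 libraries of differentiated HepaRG™ cells, a human liver progenitor line, long established, whose cells mature into cholangiocyte-like and hepatocyte-like types. The cells had been cultured for 7 days and were then exposed daily for 3 days, and RNA was taken at 55 h, which was 7 h after the last dose. RNA of 3 cultures was pooled into 1 library per condition, so that a single treated library against its control has no replicate check.

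The 5 DNA damage-inducing (DDI) chemicals were 2-nitrofluorene (2NF; 10, 50 and 250 µM), aflatoxin B1 (AFB1; 0.25, 1 and 2.5 µM), cisplatin (CISP; 2, 5 and 10 µM), etoposide (ETP; 0.5, 2.5 and 10 µM) and methyl methanesulfonate (MMS; 50, 100 and 200 µM). The 5 non-DDI chemicals were colchicine (COL; 0.05, 0.1 and 0.3 µM), 2-deoxyglucose (2DG; 1.25, 5 and 10 mM), ampicillin (AMP; 1, 3 and 10 mM), ascorbate (ASC; 1, 2 and 10 mM) and sodium chloride (NaCl; 1, 2.5 and 10 mM). The 3 concentrations of each chemical are called low, mid and high. The 9 vehicle controls comprised 4 in DMSO (for 2NF, CISP, ETP, and 1 that AFB1 and COL share), 4 in media (for 2DG, AMP, ASC and NaCl) and 1 in water (for MMS). No cytokine was among the treatments.

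The acute-phase response is the change in the secreted proteins of the liver during infection or injury. Interleukins released by macrophages, mainly IL-6 and IL-1, reach hepatocytes, where the transcription factors STAT3, NF-kB and C/EBP raise the positive acute-phase genes while albumin and other negative acute-phase genes fall. HAMP, the gene of the iron hormone hepcidin, is driven by IL-6 and also by BMP signals that report iron stores.

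The promoters of the fibrinogen genes and CRP are shown as examples from the 6 members with a start in the reference table, which gave none for SAA1, SAA2, HP or ORM2. They are not a ranking by change, as FGB was called with no chemical below, while ORM1, which is not printed, was called with COL and MMS. Each line is the 250 bases before the RefSeq start site on build GRCh38.p14, read 5′ to 3′ on the gene's strand. FGA is at chr4:154590743-154590992 (minus strand), FGB at chr4:154562730-154562979 (plus strand, the first of 2 listed starts), FGG at chr4:154612657-154612906 (minus strand) and CRP at chr1:159714590-159714839 (minus strand). Capitals mark matches, on either strand, to the STAT motif TTCNNNGAA, to CTGGGAA, the core of IL-6 response elements, or to the C/EBP motif TTGCNNAA.
FGA: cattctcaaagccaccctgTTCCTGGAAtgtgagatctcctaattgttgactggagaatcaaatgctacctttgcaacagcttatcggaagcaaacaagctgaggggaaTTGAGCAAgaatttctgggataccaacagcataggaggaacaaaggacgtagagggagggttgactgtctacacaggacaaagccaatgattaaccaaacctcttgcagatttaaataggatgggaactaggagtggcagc
FGB: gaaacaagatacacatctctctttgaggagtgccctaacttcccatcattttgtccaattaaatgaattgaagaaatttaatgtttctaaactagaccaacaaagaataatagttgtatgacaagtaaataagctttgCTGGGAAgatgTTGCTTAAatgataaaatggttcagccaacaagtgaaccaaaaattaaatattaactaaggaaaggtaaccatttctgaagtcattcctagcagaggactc
FGG: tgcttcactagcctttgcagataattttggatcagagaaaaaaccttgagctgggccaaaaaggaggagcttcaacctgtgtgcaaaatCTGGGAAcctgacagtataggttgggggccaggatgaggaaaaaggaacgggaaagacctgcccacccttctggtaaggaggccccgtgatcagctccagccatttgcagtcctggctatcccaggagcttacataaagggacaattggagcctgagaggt
CRP: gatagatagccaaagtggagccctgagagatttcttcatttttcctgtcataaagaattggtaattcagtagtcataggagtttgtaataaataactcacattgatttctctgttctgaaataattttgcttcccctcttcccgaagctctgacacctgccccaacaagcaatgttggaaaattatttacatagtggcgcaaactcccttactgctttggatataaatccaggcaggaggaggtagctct
FGA held 1 STAT and 1 C/EBP match, FGB 1 CTGGGAA and 1 C/EBP match, and FGG 1 CTGGGAA match. CRP and ORM1 held no match in this window and HAMP held 1 STAT match. Of the 35116 starts in the table, 6.57% held TTCNNNGAA, 9.15% CTGGGAA and 9.05% TTGCNNAA in the same 250 bases, and 21.9% held at least 1 of the 3. These matches describe letters in a window and are not sites of binding.

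Library totals ranged from 8504699 to 16425527 counts. The lowest median correlations of log2(RPM + 1) with the other libraries, where RPM is reads per 1000000 reads of the library total, were 0.975 for MMS mid, 0.979 for MMS high and 0.985 for CISP low and COL high. CISP low and 2DG low had been grouped apart when these libraries were clustered on DNA damage genes, and without both the same numbers of members were called. The 9 hepatocyte markers, albumin among them, were all detected, while PTPRC, the pan-leukocyte marker, had 0 counts in every library. CD163 and MARCO of macrophages reached at most 2 and 1 counts and VWF of endothelium at most 1, while CD68, also of macrophages, was 72.3 to 99.0 RPM in the controls of 2NF, AFB1, COL and MMS. Among the biliary markers EPCAM, KRT7 and CFTR reached at most 2, 3 and 1 counts, whereas KRT19 was 626 to 1233 RPM in those controls.

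The 10 members together took between 0.599% of the counts (MMS mid) and 3.07% (ASC low) of a library, with a median of 1.75%. The 9 members other than HAMP were well covered. CRP had at least 24 counts in every library and the other 8 at least 623, for which counting error alone gives a 95% exact binomial interval of ± 7.93% of the value. CRP had 26 counts in AFB1 high, which gives 2.43 RPM with an exact interval from 1.59 to 3.56 RPM. Such intervals cover counting error only.

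HAMP was at or near the limit of detection. It had 116 counts in all 39 libraries together, at most 13 (ASC low, 1.13 RPM), 0 in 6 libraries and more than 3 in 15 libraries. The floor of 3 counts corresponds to between 0.183 and 0.353 RPM, so no fold is given for HAMP, and an effect on it was not detectable at this depth. BMP6, the main BMP ligand upstream of HAMP in liver, had 0 counts in every library. TFR2, an iron sensor, had a mean of 0.646 RPM. Other genes of BMP signalling were detected, as BMP2 at 18.4, BMPR2 at 105 and ID1 at 546 RPM in the 2NF control. The part of any of these genes in the level of HAMP was not tested.

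Along the concentration steps (control, low, mid, high), members fell in 3 of the 10 chemicals and rose in none, though FGB and FGG were called higher with ASC when the vehicle, and not the control set, was the block. With AFB1 4 members fell (CRP, FGA, FGG and ORM2), with MMS 5 (HP, ORM1, ORM2, FGA and FGG) and with COL 5 (CRP, ORM1, ORM2, FGA and FGG), all at an adjusted p under 0.05 in edgeR over all 13812 genes tested. Of all genes tested, 3.21% were called lower with AFB1, 10.4% with MMS and 7.21% with COL. FGA, FGG and ORM2 were called in all 3, and SAA1, SAA2, FGB and HAMP were called with none. AFB1 and COL share their control library. The share of all genes called lower in all 3 was not counted, so this overlap cannot be set against it. The median slope of the 9 members other than HAMP was -0.37 log2 per step with AFB1, -0.405 with MMS and -0.45 with COL, where the medians over all genes tested were -0.0013, -0.0066 and 0.0009.

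**Figure D1:**
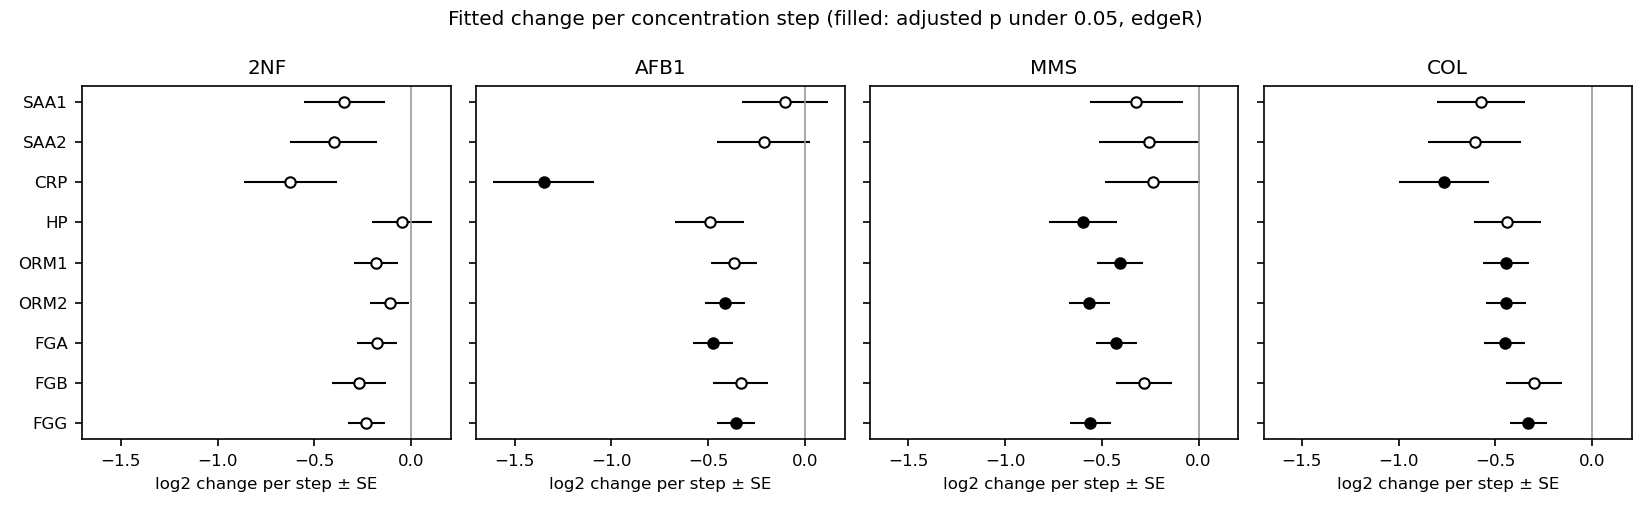
Fitted log2 change per concentration step (x axis) of the 9 detected members (y axis) with 2NF, AFB1, MMS and COL, with bars for the SE and filled points for an adjusted p under 0.05. All 9 points lay below 0 with each of these 4 chemicals, and the farthest was CRP with AFB1 at -1.35.

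CRP, the pentraxin measured in blood as a marker of inflammation, showed the steepest slope of the 9 detected members with AFB1 and COL, but the shallowest with MMS. Its control for AFB1 and COL held 57.2 RPM, and AFB1 gave 36.4, 13.2 and 2.43 RPM at the low, mid and high concentrations, the last being 4.25% of the control. The slope was -1.35 ± 0.26 log2 per step (SE; adjusted p = 0.00175). With COL, CRP was 26.65, 32.1 and 12.9 RPM, with a slope of -0.77 ± 0.23 (adjusted p = 0.0275). That shared control was the highest of the 9 controls, which ran from 13.45 to 57.2 RPM, and AFB1 low, COL low and COL mid lay inside that range. AFB1 mid and COL high were just under the lowest control, and AFB1 high was well below it. With MMS, CRP was 51.3, 17.3 and 26.5 RPM against 28.4 in water, with no trend (slope -0.24 ± 0.25, adjusted p = 0.581). The CRP slope with AFB1 differed from that with COL by -0.58 ± 0.23 (adjusted p = 0.141) and from that with MMS by -1.11 ± 0.36 (adjusted p = 0.16), and no member passed the test of a difference between these slopes. Of all genes, 6.26% were called in AFB1 minus COL, 0.746% in AFB1 minus MMS and 2.4% in COL minus MMS.

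The fibrinogen genes code for the chains of the clotting protein fibrinogen, FGA for the alpha, FGB for the beta and FGG for the gamma chain. FGA was 199.8 RPM in the shared AFB1 and COL control, 138, 120 and 80.1 RPM with AFB1 and 144, 152 and 67.6 RPM with COL. FGA was 149 RPM in the MMS control and 132, 58.0 and 78.3 RPM with MMS. AFB1 mid and high, COL high, and MMS mid and high were below all 9 controls, which lay between 128 and 202 RPM. The slopes were -0.47 ± 0.10 with AFB1 (adjusted p = 0.00442), -0.45 ± 0.105 with COL (adjusted p = 0.00407) and -0.42 ± 0.11 with MMS (adjusted p = 0.00695).

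FGG fell from 1993 RPM in the shared control to 1712, 1457 and 1015 RPM with AFB1 and to 1679, 1558 and 1046 RPM with COL, and from 1630 RPM to 1411, 872.5 and 577 RPM with MMS. It decreased at each concentration of these chemicals. The slope was steepest with MMS (-0.56 ± 0.105, adjusted p = 0.000613), against -0.35 ± 0.10 with AFB1 (adjusted p = 0.0277) and -0.33 ± 0.10 with COL (adjusted p = 0.0228). FGB was 2597 RPM in the shared control, 2477, 1892 and 1541 RPM with AFB1, and 2463, 2386 and 1415 RPM with COL. Its slopes of -0.33 ± 0.14, -0.30 ± 0.14 and, with MMS, -0.28 ± 0.14 were in the same direction as those of FGA and FGG, but none passed the test (adjusted p = 0.221, 0.204 and 0.199).

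HP codes for haptoglobin, which binds free hemoglobin. With MMS, HP was 2108 RPM in the control and 1920, 538 and 831.5 RPM at the 3 concentrations (slope -0.60 ± 0.175, adjusted p = 0.0205). MMS mid held the lowest HP of all 39 libraries. The high libraries of AFB1 (1155 RPM) and COL (1428 RPM) were below every control (2108 to 3565 RPM), but the slopes of -0.49 ± 0.18 and -0.44 ± 0.17 missed the threshold (adjusted p = 0.122 and 0.102). HP shares long stretches with its neighbour HPR, and reads that fit both could not be separated here.

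ORM1 and ORM2 code for the alpha-1-acid glycoproteins, which bind drugs in plasma. ORM2 was 4587 RPM in the shared control and 4134, 3330 and 2105 RPM with AFB1 (slope -0.41 ± 0.105, adjusted p = 0.016) and 3710, 3340 and 1920 RPM with COL (slope -0.45 ± 0.10, adjusted p = 0.00409). With MMS it was 3534 RPM in the control and 2584, 1260 and 1308 RPM at the 3 concentrations (slope -0.565 ± 0.105, adjusted p = 0.000568). Every step but the last of MMS was a decrease. ORM1 fell with COL (-0.45 ± 0.12, adjusted p = 0.0104) and MMS (-0.405 ± 0.12, adjusted p = 0.0206), and its slope with AFB1 was -0.37 ± 0.12 (adjusted p = 0.065).

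The calls with AFB1 and COL rested on single libraries. Without AFB1 high 0 of the 4 AFB1 calls remained, and without COL high 0 of the 5 COL calls, although each of those slopes was still below 0. Calls among all genes were lost too. Without AFB1 high 0 of 13821 genes were called, and without COL high 88 of 13817 were called lower. With all 39 libraries, 443 and 996 of 13812 genes were called lower with AFB1 and COL. Without the shared control AFB1 kept 3 calls and COL 3, where 248 and 558 of 13786 genes were called lower. With MMS 3 calls were left without MMS mid, 4 without MMS high and 1, FGG, without the MMS control. Of all genes, 1080, 1113 and 189 were called lower in these MMS fits, against 1435 with all 39 libraries. All 14 slopes kept their sign in each of these fits without a single library.

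**Figure D2:**
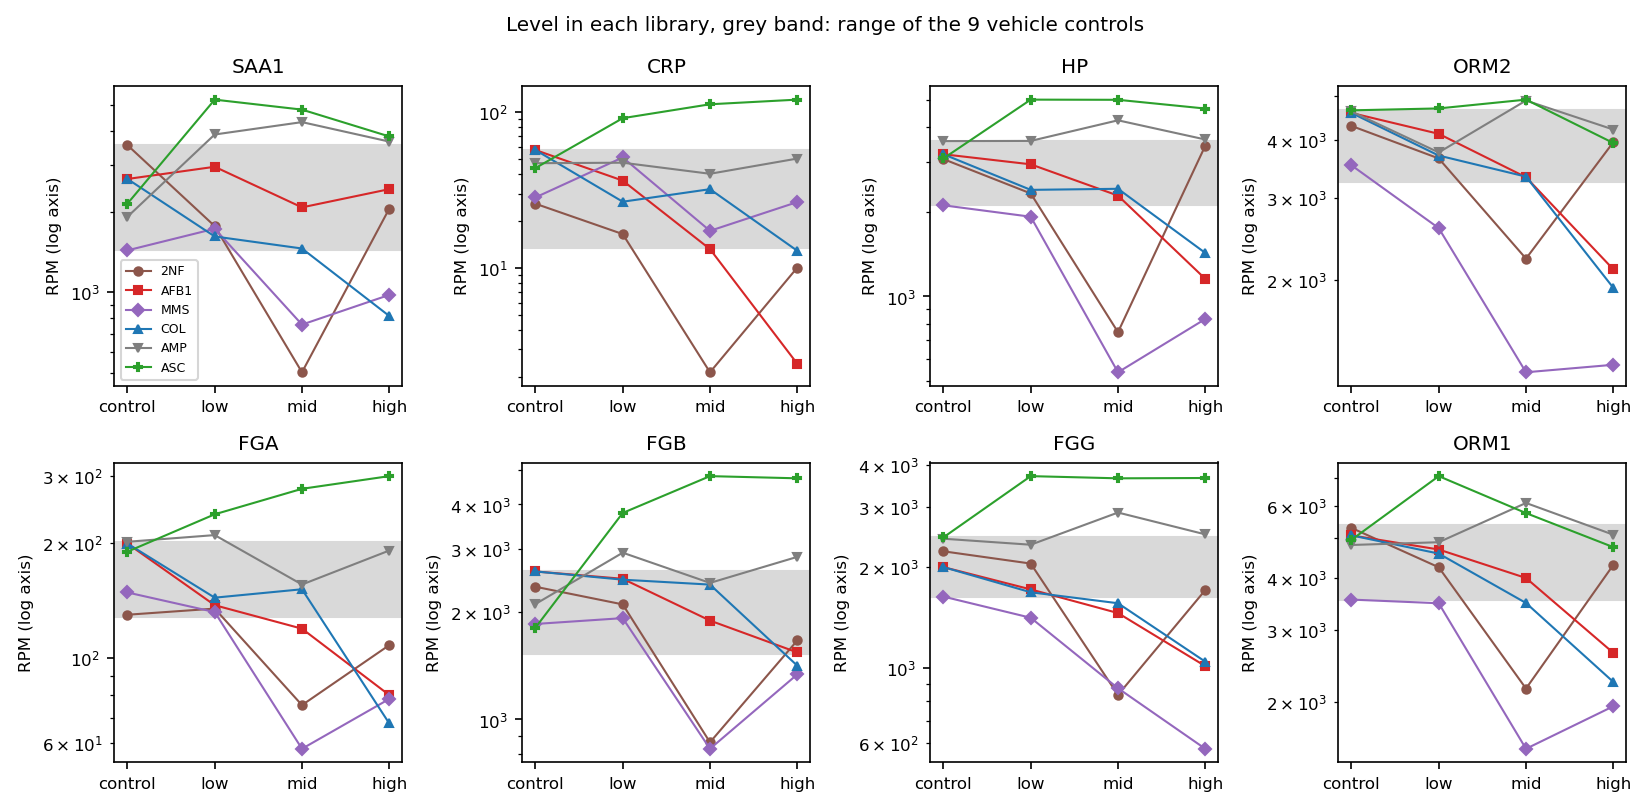
RPM (log axis) of 8 members in the control, low, mid and high libraries of 6 chemicals, 1 library per point, with the range of the 9 vehicle controls as a grey band. COL high lies under the band for all 8, 2NF lies under it at mid and is higher again at high, and ASC lies above it at all 3 concentrations for SAA1, CRP, HP, FGA, FGB and FGG.

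2NF gave a pattern with no trend over the 3 concentrations. No member was called along its steps, while 4.45% of all genes were called lower. At the mid concentration all 9 members lay further below their control than any 2 DMSO controls differed, against 14.1% of 13751 genes with at least 10 counts in at least 3 libraries. SAA1 was 3543 RPM in the control and 1766, 503 and 2052 RPM at the 3 concentrations, HP was 3076 RPM and then 2323, 747 and 3431 RPM, and CRP was 25.9 RPM and then 16.5, 2.14 and 10.1 RPM. The mid library was the lowest of all 39 for SAA1, SAA2 and CRP, and all 9 members were higher again at 250 µM. With 2NF high left out, 6 members fell over the remaining libraries (SAA1, SAA2, CRP, HP, ORM1 and FGG), where 2.32% of genes were called lower, and CRP fell by 1.62 per step (SE 0.42, adjusted p = 0.0231). That fit was made after the values had been seen and leaves out the library in which the members were higher again, so it describes the lower 2 concentrations and is no independent support.

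SAA1 and SAA2 code for serum amyloid A, the most strongly induced acute-phase apolipoproteins. They are near-identical neighbours, and their levels moved as one. The SAA1 to SAA2 ratio of RPM was between 5.74 (MMS high) and 9.13 (AFB1 high), with an SD of 0.13 log2, where SAA1 itself had an SD of 0.77 log2 over the 39 libraries. How reads were divided between the 2 amplicons was not stated, so their separate values are uncertain. Neither was called with any chemical, and they did not follow CRP with AFB1, where SAA1 was 2649 RPM in the control and 2942, 2075 and 2427 RPM at the 3 concentrations (slope -0.10 ± 0.22, adjusted p = 0.917). With COL, SAA1 was 1616, 1457 and 816 RPM (slope -0.57 ± 0.23, adjusted p = 0.11). ORM1 and ORM2 are likewise near-identical, with a ratio between 0.926 and 1.51.

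**Figure D3:**
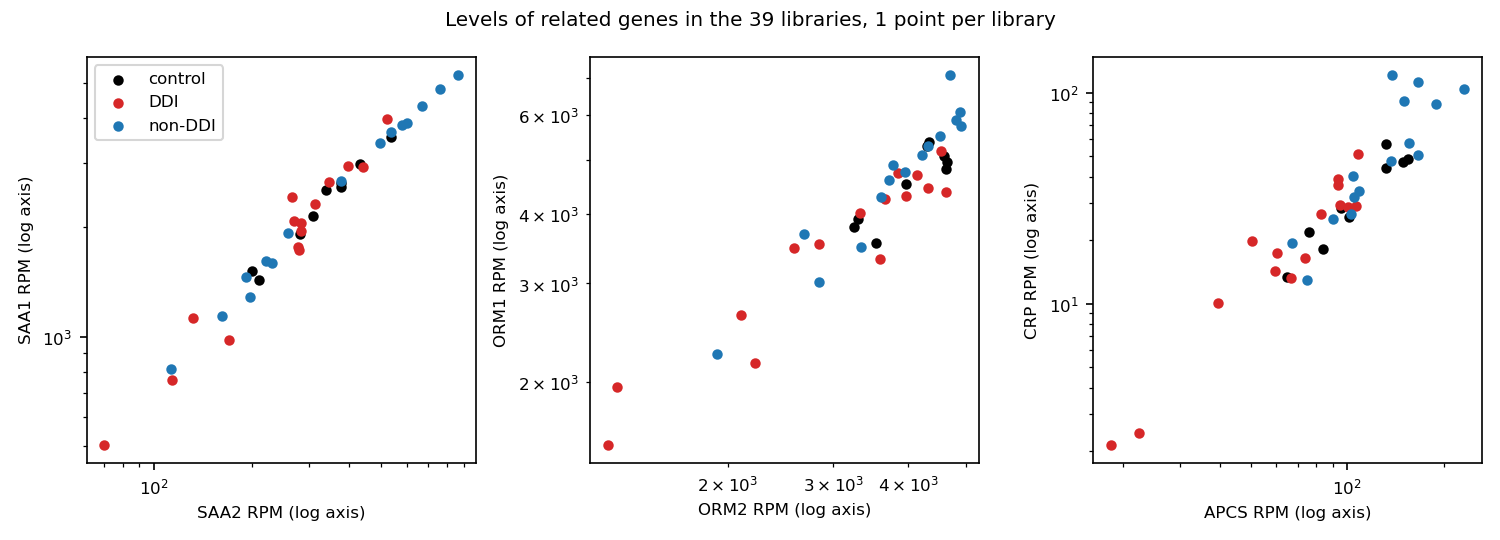
RPM of SAA1 against SAA2, ORM1 against ORM2 and CRP against APCS (log axes) in the 39 libraries, 1 point per library, coloured by control, DDI and non-DDI. SAA1 and SAA2 lie close to 1 line with a Pearson r of 0.987, and the 2 points lowest in CRP are 2NF mid and AFB1 high.

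In single libraries the members moved in both directions. Set against the largest difference between 2 controls of the same vehicle, 36 of the 243 log2 ratios (9 members in the 27 treated libraries in DMSO or media) lay lower and 29 higher, where 9.89% and 9.88% of the ratios of all genes did. Against the mean of the controls of the same vehicle the balance turned, with 30 lower and 33 higher. The members' counts gathered in few libraries. In COL high all 9 were lower, against 15.6% of genes, in AFB1 high 6 were, against 12%, in AFB1 mid 3, against 5.54%, and in 2DG low 3, against 6.01%. No member of any CISP or ETP library was beyond this limit. Of all genes, 20.95%, 20.81% and 6.87% were lower in CISP low, mid and high, and 12.73%, 16.54% and 9.18% higher. In ETP low, mid and high 7.44%, 7.97% and 7.77% were lower, and 7.4%, 9.8% and 7.72% higher. The limit was wider in DMSO than in media for every detected member but HP, as for SAA1 at 1.221 against 0.639 log2. The 3 water-matched MMS libraries have 1 control and so no such limit.

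ASC was the treatment with the most members on the high side, with 6 of 9 above the limit in ASC low, 7 in ASC mid and 6 in ASC high, against 8.74%, 8.33% and 9.5% of genes. FGB was 1808 RPM in the ASC control and 3787, 4802 and 4735 RPM at the 3 concentrations, FGG was 2442 RPM and then 3707, 3652 and 3660 RPM, and CRP was 43.8 RPM and then 91.6, 112.5 and 120.5 RPM. The fibrinogen chains and CRP were thus above their control at all 3 concentrations, and FGB exceeded every control at each. SAA1 was 2143 RPM in the control and 5240, 4809 and 3818 RPM with ASC, where 5240 RPM was its highest value in the series. ORM2 did not share this pattern, with 4647 RPM in the control and 4692, 4902 and 3950 RPM. FGB was lower at the high than at the mid concentration, while CRP and FGA (190.3 RPM in the control and 238, 278 and 300.1 RPM) rose in value at each concentration. No slope passed the test (FGB 0.46 ± 0.16, adjusted p = 0.244, and CRP 0.47 ± 0.24, adjusted p = 0.371), and 0.0579% of genes were called in either direction. With vehicle in place of the control set as the block, FGB and FGG were called higher, where 0.304% of genes were. The summed RPM of the 9 hepatocyte markers also was higher with ASC, at 24160 in the control and 32660, 46570 and 36510 at the 3 concentrations. The median slope of these 9 markers with ASC was -0.117 log2 per step, and 0 were called, so the sum does not describe each marker. The part of the hepatocyte markers in the members' values with ASC was not tested.

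With AMP, SAA1 and SAA2 were above this limit at all 3 concentrations. SAA1 was 1914 RPM in the control and 3883, 4319 and 3653 RPM, and FGB went from 2105 RPM to 2931, 2412 and 2853 RPM. At AMP low 3 of 9 members were above the limit, against 4.3% of genes, and the AMP control held the lowest SAA1 of the media controls (1914 to 2982 RPM). CRP was not above the limit, at 47.1 RPM in the control and 47.4, 40.3 and 50.4 RPM. With NaCl, CRP was 48.7 RPM in the control and 57.9, 87.9 and 104 RPM, while SAA1 was 2579 RPM and then 2686, 3419 and 1597 RPM. With ETP, SAA1 was 1519 RPM in the control and 2927, 2322 and 1947 RPM, and with 2DG it was 2982 RPM and then 1139, 1926 and 1287 RPM. No member was called along the steps of these chemicals or of CISP. Of all genes, 0% were called with CISP, 0.0796% with ETP, 0% with 2DG, 0% with AMP and 0.0434% with NaCl.

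**Figure D4:**
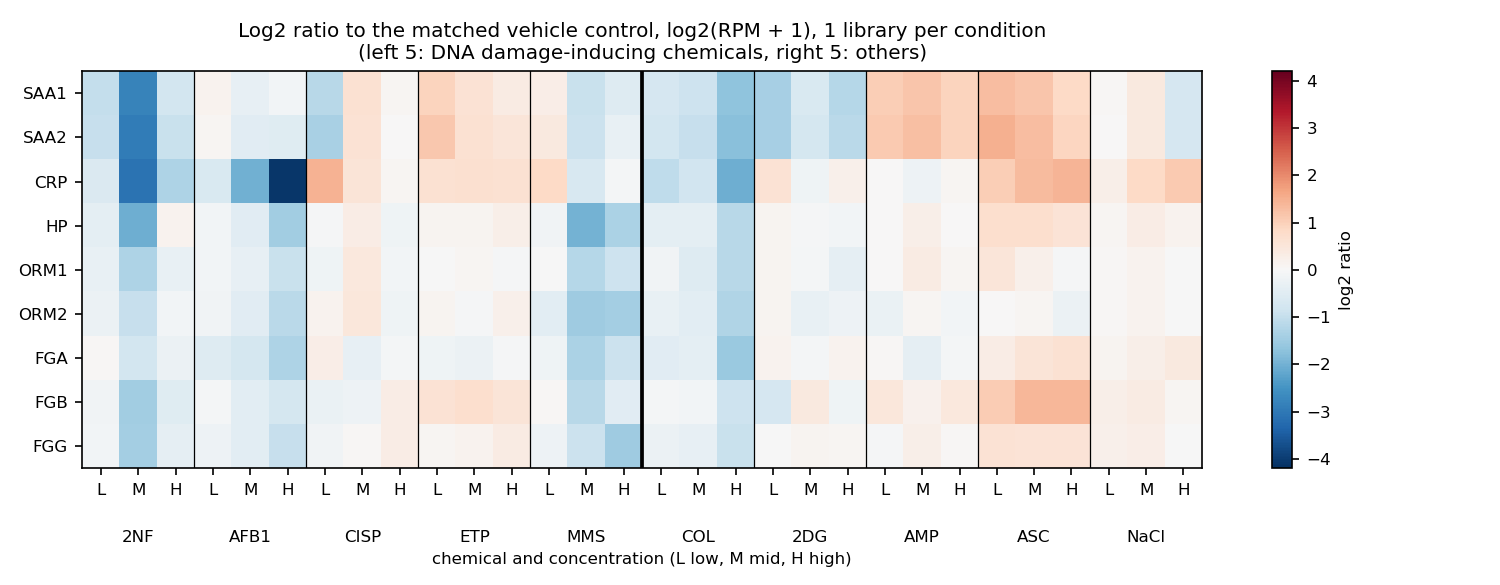
Log2 ratio of each of 9 members (rows) to the matched control in the 30 treated libraries (columns, 3 concentrations per chemical), on a scale of log2(RPM + 1), blue for lower and red for higher. The darkest cells are CRP in AFB1 high (-4.085), CRP in 2NF mid (-3.10) and SAA1 and SAA2 in 2NF mid, and the ASC columns are red for most rows.

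Between the 2 classes of chemicals, with the 5 chemicals of a class as replicates, no member was called at the low, mid or high concentration in edgeR, where 0%, 0% and 0.0515% of genes were called. With so few calls among all genes these counts say nothing particular of the members. At an unadjusted p under 0.05, 308, 783 and 1069 genes differed, and DESeq2 also called 0 members. At the mid concentration the DDI minus non-DDI difference was below 0 for all 9 detected members, and was -0.67 ± 0.23 log2 for FGA (unadjusted p = 0.0114), -0.90 ± 0.36 for FGB (unadjusted p = 0.0257) and -0.63 ± 0.27 for FGG (unadjusted p = 0.0375), all with an adjusted p = 0.808 in edgeR. At the high concentration the difference was -1.12 ± 0.80 log2 for CRP (adjusted p = 0.805), -0.45 ± 0.36 for HP (adjusted p = 0.839) and 0.295 ± 0.46 for SAA1 (adjusted p = 0.949). Within each class the chemicals differed, with CRP log2 ratios at the high concentration of -4.085 for AFB1 and 0.08 for CISP among the DDI chemicals, and of -2.07 for COL and 1.44 for ASC among the others. Against their own controls at the high concentration, 0 members were called in the DDI chemicals, with 0.478% of genes called lower, and the largest of these values was -0.81 ± 0.59 for CRP.

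No member passed the test between the vehicles. In DMSO minus media controls (4 and 4 libraries), 0 of 9 members were called in edgeR or DESeq2 against 5.35% of genes, and none was at an unadjusted p under 0.05. CRP was 13.45 to 57.2 RPM in DMSO and 21.9 to 48.7 RPM in media (difference -0.46 ± 0.41 log2, adjusted p = 0.578). Between controls of one vehicle the members differed by up to 2.01 log2 for CRP and 1.425 log2 for SAA2 in DMSO, but by no more than 0.50 log2 for ORM2. Controls of one vehicle were matched to different chemicals. Whether they came from separate exposures is not stated, so they may not be replicate cultures of one set.

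Of 18 other positive acute-phase genes tested, 4 fell with AFB1, 11 with MMS, 2 with COL and 6 with 2NF, and none rose, against 3.21%, 10.4%, 7.21% and 4.45% of all genes called lower. The share with COL was near that of all genes. HPX, the heme carrier hemopexin, was 166 RPM in the control and 121, 94.5 and 43.6 RPM with AFB1 (-0.62 ± 0.14 log2 per step, adjusted p = 0.0064) and fell by 1.01 per step with MMS (SE 0.155, adjusted p = 8.22e-05). APCS, the pentraxin most related to CRP, was 132 RPM and then 93.8, 66.7 and 22.4 RPM with AFB1 (-0.79 ± 0.16, adjusted p = 0.00248). SAA4, the constitutive serum amyloid A gene, fell with AFB1, MMS, COL and 2NF (by 0.53 per step with COL, adjusted p = 0.00603), and CD14, the endotoxin co-receptor, fell with COL (-0.34 ± 0.11, adjusted p = 0.0367).

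The negative acute-phase genes did not go the other way. Of 9 tested, 6 fell with AFB1, 9 with MMS, 6 with COL and 7 with 2NF, and none rose, each above the share of all genes given above. TTR, the carrier transthyretin, was 4802 RPM in the shared control and 3491, 2765 and 1140 RPM with AFB1 (-0.65 ± 0.125, adjusted p = 0.00169) and 2992, 2904 and 1645 RPM with COL (-0.55 ± 0.12, adjusted p = 0.00243). AHSG, the fetuin-A gene, fell by 1.37 per step with MMS (SE 0.26, adjusted p = 0.000578). Members and negative acute-phase genes thus both fell with AFB1, MMS and COL. With 2NF the negative acute-phase genes were called lower and no member was.

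Markers of hepatocytes were called lower with AFB1, MMS and COL, as members were, and also with 2NF, where no member was. The 9 hepatocyte markers share ALB, APOA1, TTR and TF with the negative acute-phase list. Of these markers 7 fell with AFB1, 7 with MMS, 8 with COL and 7 with 2NF, against 3.21%, 10.4%, 7.21% and 4.45% of all genes called lower. The summed level of the 9 markers went from 41640 RPM in the shared control to 25170 RPM in AFB1 high and 19810 RPM in COL high. It went from 26100 to 6916 RPM in MMS high and from 36390 to 12620 RPM in 2NF high. In 2NF mid the sum was 14660 RPM, and the 9 detected members were at between 8.28% (CRP) and 58.0% (FGA) of the control. In 2NF high, the 9 detected members were at between 38.9% (CRP) and 112% (HP) of the control. In CISP mid the sum was 25470 RPM against 48700 RPM in the control, and the 9 detected members were at between 78.6% (FGA) and 157% (SAA1) of the control. That control had the highest sum of the 9, the sum in CISP high was 37910 RPM, and no hepatocyte marker was called with CISP. The 9 controls ran from 24160 to 48700 RPM, the 5 DDI libraries at the high concentration from 6916 to 39580 RPM and the 5 non-DDI ones from 19810 to 40910 RPM. In pooled RNA, fewer hepatocyte-like cells and less RNA per cell cannot be told apart, and the part of the hepatocyte markers in the members' values was not tested. Of 7 liver transcription factors, 2 fell with AFB1, 5 with MMS, 5 with COL and 1 with 2NF, against the same shares of all genes. Those with AFB1 were CEBPA, the C/EBP alpha gene, and ONECUT1. HNF4A, a nuclear receptor that maintains hepatocyte genes, fell by 0.47 per step with MMS (adjusted p = 0.0374) and by 0.58 with COL (adjusted p = 0.0101).

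Of 7 cholangiocyte markers, 4 passed the filter on low counts. SPP1 fell with MMS and COL and rose with 2NF, SOX9 fell with MMS and 2NF and KRT19 with 2NF, and none was called with AFB1. Their summed level was 468 to 1456 RPM in the controls, 322 to 1369 RPM in DDI high and 995 to 1388 RPM in non-DDI high. Of 6 macrophage and leukocyte markers 2 passed the filter, and ITGAM rose with 2NF and AFB1 at a mean of 1.86 RPM, while the sum stayed between 53.7 and 118 RPM in the controls and high libraries. Of 6 stellate and endothelial markers 4 passed, ACTA2 rose with 2NF and AFB1, COL1A1 rose with COL and fell with MMS, and PECAM1 fell with MMS. Of all genes, 3.21%, 10.4%, 7.21% and 4.45% were called lower with AFB1, MMS, COL and 2NF, and 2.36%, 5.1%, 5.13% and 4.3% higher. The part of these markers in the members' values was not tested.

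Of 16 genes of IL-6 signalling tested, 1 rose and 1 fell with AFB1, 3 fell with MMS, 3 rose and 1 fell with COL, and 1 rose with 2NF. Of all genes, 2.36% were called higher with AFB1, 5.1% with MMS, 5.13% with COL and 4.3% with 2NF, and 3.21%, 10.4%, 7.21% and 4.45% lower. IL6R, the receptor subunit that binds IL-6, fell with AFB1, MMS and COL, most with MMS, where it was 54.3 RPM in the control and 54.8, 34.0 and 21.1 RPM (-0.51 ± 0.08 per step, adjusted p = 5.8e-05). IL6 itself was near the detection limit, with a mean of 1.43 RPM, but rose with COL from 9 counts in the control to 25, 39 and 60 counts (1.07 ± 0.17 per step, adjusted p = 9.62e-05). IL11 and OSMR also rose with COL, LIF rose with AFB1 and 2NF, and IL22RA1 and IL6ST fell with MMS. SOCS3, a feedback target of STAT3, was not called with any chemical at a mean of 8.85 RPM.

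Of 10 genes tested in the IL-1 and NF-kB list, 2 fell with MMS and 1 with COL, against 10.4% and 7.21% of all genes, and none was called with AFB1 or 2NF. NFKBIZ, which codes for a nuclear regulator of NF-kB, was 248 RPM in the MMS control and 89.05, 61.8 and 41.6 RPM with MMS (-0.88 ± 0.11, adjusted p = 9.71e-06). NFKBIA, the inhibitor of NF-kB, fell with MMS and COL. IL1B itself had at most 21 counts in a library.

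Of 18 genes tested in the BMP and iron list, 1 fell with AFB1, 4 with MMS, 3 with COL and 3 with 2NF, and none rose, against 3.21%, 10.4%, 7.21% and 4.45% of all genes called lower, and the share with AFB1 was near that of all genes. TMPRSS6, the protease that restrains hepcidin, fell from 59 counts in the shared control to 15, 20 and 8 counts with AFB1 (-0.745 ± 0.14, adjusted p = 0.00172), and fell also with MMS and 2NF. SLC40A1, the iron exporter ferroportin, fell by 0.45 per step with MMS (adjusted p = 0.00146) and by 0.44 with COL (adjusted p = 0.00171). Of 7 glucocorticoid-responsive genes, 1 fell with AFB1, 3 with MMS, 3 with COL and 2 with 2NF. TAT, tyrosine aminotransferase, fell with all 4, from 13.25 RPM to 8.44, 3.42 and 0.468 RPM with AFB1. No gene of any of these lists was called with CISP, ETP, 2DG, AMP, ASC or NaCl.

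The genes outside the members whose log2(RPM + 1) was most like that of a member were sought among 10684 genes with a mean of at least 5 RPM, as a description over 39 libraries that share controls and depth. For CRP they were APCS (Pearson r = 0.945, Spearman rho = 0.937), CYP4X1 (r = 0.866) and CFHR4 (r = 0.865). For SAA1 they were LDHD (r = 0.892), ECI1 (r = 0.87) and DUSP9 (r = 0.842), and for FGB they included DUSP9 (r = 0.873) and AS3MT (r = 0.843). For HP they were SERPINA10 (r = 0.908), ST6GAL1 (r = 0.903) and SLCO2B1 (r = 0.895). For HAMP the highest was APMAP at r = 0.66, on a gene with 0 to 13 counts.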

How the data were processed

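Differentiated HepaRG™ cells of 39 conditions were profiled with the human AmpliSeq whole-transcriptome panel. The authors aligned reads to the panel (hg19), pooled the chips by barcode and deposited unnormalized counts for each amplicon. A second table deposited by the authors holds RPM (reads per 1000000 counted), which the counts gave back to within 0.000538. The 10 spike-in targets held no counts and were left out, leaving 20802 targets. Groups, concentrations and vehicles came from the labels, and the DDI class from the study.

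Levels are deposited RPM, and log2 ratios use a pseudocount of 1. Counts were tested with edgeR 4.0.16 in R 4.3.3 (TMM, filterByExpr, quasi-likelihood, Benjamini-Hochberg adjustment over all genes tested, called at 0.05). All 39 libraries entered 1 fit with the 9 control sets as blocks and a slope per concentration step for each chemical (20 residual degrees of freedom), so errors are deviations from the slopes and not the spread between cultures. Classes were fitted at each concentration with the control set as block (8 degrees of freedom), and vehicles on 8 controls. Differences between slopes and fits without single libraries were added after the data were seen. The tests were checked on simulated counts. Members and gene lists were chosen with earlier results of these data known. Every member is named, and of the other lists at most 4 called genes per chemical, chosen by size of change. Some genes are named for another chemical too. Values of 2 genes that this rule names are not reported here. Alternatives were RLE or library totals, no filter, DESeq2 1.42.0, concentration as a fraction of the highest, vehicle as block, high or low libraries left out, each chemical or control left out, a pseudocount of 0.1, TMM-scaled values and the mean of same-vehicle controls. Promoters came from RefSeq, and 6 of the 10 members had an entry. Figures used Python 3.11.15 with matplotlib 3.10.9.

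Totals of 8504699 to 16425527 counts per library, without molecular identifiers, limit the precision of CRP and HAMP most.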

Additional observations from a re-analysis of the deposited data

Results flagged for a closer look

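In 72 groups of 4 or 5 values (the DMSO and media controls, and the chemicals of a class at a concentration, for each of 9 members), 2 held a value far from the others, where chance flags about 1 in 20 groups. The CRP level of the media control of 2DG was 4.517 on the log2(RPM + 1) scale, below the other 3 media controls. The ORM2 log2 ratio of COL high was -1.256, below the other 4 non-DDI chemicals at the high concentration.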

How the results depend on the processing

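RLE scaling, library totals, no filter and DESeq2 kept all 14 calls of members along the concentration steps, with CISP low and 2DG low left out too. DESeq2 called 5 members with AFB1, where it called 525 of 13544 genes lower, against 443 of 13812 in edgeR. All 14 slopes kept their sign throughout. With vehicle as the block 13 of the 14 calls were kept and 1 was lost. In that fit 2 members were called with 2NF and 2, FGB and FGG, were higher with ASC, where 42 of 13812 genes were called higher and 129 lower. Without the high libraries the counts were 6 with 2NF, 0 with AFB1 and 0 with COL. Without the low libraries they were 2 with AFB1, 3 with MMS and 1 with COL. With concentration as a fraction of the highest they were 3 with MMS and 3 with COL, and 5 of the 14 calls were lost. Taking the 3 concentrations as replicates against the control, chosen after seeing the data, gave 0 with AFB1, 0 with MMS and 0 with COL. Leaving out single libraries, also added, gave 0 to 6 members with 2NF, 0 to 4 with AFB1, 1 to 5 with MMS and 0 to 5 with COL. The cause was not tested.

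The DDI minus non-DDI difference at the high concentration changed sign, with no call either way, for SAA1 (-0.204) and SAA2 (-0.351) without the control set block, for SAA1 (-0.243) and SAA2 (-0.315) without COL, for SAA2 without 2DG (-0.015) and for ORM2 without MMS (0.059). Over the chemicals left out in turn it ranged from -0.243 to 0.61 for SAA1, from -0.315 to 0.496 for SAA2 and from -0.444 to 0.059 for ORM2. In no alternative was a member called between the classes or the vehicles.

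Of all genes, the 769 called with AFB1 became 0 without the high libraries, 373 without the low ones and 1669 with vehicle as the block, and the 1704 with COL became 93, 1027 and 2807. The 2140 with MMS became 1397 and 1287 without the high and the low libraries and 1322 on the fraction scale, and the 1208 with 2NF became 479 and 445 without the high libraries and on the fraction scale, 806 without the low ones and 2230 with vehicle as the block. As replicates, the 3 concentrations gave 4, 0, 161 and 7 genes with 2NF, AFB1, MMS and COL. With library totals in place of TMM, 1104 genes were higher and 1146 lower with MMS, 439 and 370 with AFB1, and 678 and 536 with 2NF, in place of 705 and 1435, 326 and 443, and 594 and 614. DESeq2 called 96 genes between the classes at the high concentration in place of 7, and 1144 in place of 698 between the vehicles.

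The limits are 1 pooled library per condition, 1 water control, a control that AFB1 and COL share, and few counts for HAMP and CRP.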
